A study of Mus musculus with 200 samples.

Results

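Imprinted genes are read mainly from one parental copy. The 7 genes of mouse chromosome 2 described here are known as imprinted in some tissue and form 4 loci: *Gnas* with *Nespas*, *Blcap* with *Nnat*, *H13* with *Mcts2*, and *Sfmbt2*. They were chosen by symbol, as 7 of the 22033 genes in the deposited tables, and all 7 were found there. Their allele votes could be tested for 5 of the 7 in F1 embryos and for 4 of the 7 in N2 embryos. *Nnat* had no vote in either generation, and *Nespas* had none in F1 embryos.

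Imprinted genes lie in domains in which one parental copy carries DNA methylation laid down in the egg or the sperm, and this mark directs which copy is transcribed later. *Mcts2* and *Nnat* are intronic genes that arose inside a host, start at a promoter methylated on the maternal copy, and are known as paternally expressed. Their hosts *H13* and *Blcap* are known for a weaker bias to the maternal copy, found for *Blcap* in brain. The *Gnas* locus makes several transcripts with shared downstream exons, among them maternally expressed Nesp, paternally expressed Gnasxl, the antisense *Nespas* from the paternal copy, and the Gs alpha subunit from both copies in most tissues. *Sfmbt2* is known as paternally expressed in extra-embryonic tissue. H13 is a signal peptide peptidase of the endoplasmic reticulum, Mcts2 is a close relative of the translation factor Mcts1, Nnat is a small membrane proteolipid of neural and endocrine cells, Blcap is a small membrane protein linked to growth control, and Sfmbt2 is a Polycomb-group protein.

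3SEQ, which sequences the 3′ ends of polyadenylated RNA, was carried out on single whole mouse embryos at E11.5, freed of extra-embryonic material. The strains were the laboratory strain C57BL/6J (B6) and Castaneus (Cast), an inbred strain of another subspecies, with no transgene, mutation or treatment in any group. There were 8 F1 embryos from B6 mothers and Cast fathers (B6 × Cast) and 8 from Cast mothers and B6 fathers (Cast × B6), from 2 litters each. Of the N2 backcross embryos with genotypes, 89 came from B6 mothers and F1 fathers (B6 × F1, 17 litters) and 65 from F1 mothers and B6 fathers (F1 × B6, 12 litters). All N2 embryos are therefore B6/B6 or heterozygous at each gene, and a Cast allele is paternal in B6 × F1 and maternal in F1 × B6. The embryos were litter mates in part, so that p-values over embryos measure the spread between embryos of few litters.

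Between 15703888 and 38234229 reads fell on genes in single F1 embryos, and between 245220 and 5370322 in single N2 embryos. The litters of the F1 crosses differed in stage. They had 58 to 63 and 48 to 50 somites in B6 × Cast and 41 to 43 and 46 to 48 in Cast × B6. Cross and stage can thus be told apart only between the litters of like stage. By the run labels, the litter with 46 to 48 somites had no gaIIx run, unlike the other F1 litters. The litters of like stage thus also differ in sequencing run, and the part of this was not tested. Of the 14 N2 lanes 8 held B6 mothers only, 5 held F1 mothers only and 1 held both, so that lane and mother can hardly be told apart. Of the placenta and yolk sac markers 9 of 10 were in the tables, in each group 3 of these were at 0 in every embryo, and the summed level of the list ranged from 101.5 to 1011 RPM (a read count divided by all reads on genes of that embryo, times 1000000) over the N2 embryos. The summed level of 11 measured neuron markers ranged from 545 to 3144 RPM over the N2 embryos.

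The intronic genes are shown with their hosts, since *Mcts2* and its host *H13* were biased to opposite parents. *Nnat* had no votes, and its pair could not be compared in this way. In the mm9 genome (NCBIM37, GENCODE annotation) *Mcts2* is on chromosome 2 from 152512884 to 152513676, in an intron of *H13* (152495197 to 152534406) and on the same plus strand. *Nnat* (157385814 to 157388258, plus strand) lies in an intron of *Blcap* (157382098 to 157397010, minus strand). The exons of these pairs share 0 bases. *Nespas* (174106738 to 174120937, minus strand) and *Gnas* (174109821 to 174172245, plus strand) share 988 exon bases, 31.4% of those of *Nespas*, on opposite strands. Whether strand was used in counting is not stated, so that reads there cannot be assigned to one gene of this pair with certainty. *Sfmbt2* lies far off, from 10292137 to 10516880 on the plus strand.

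The promoters of the 2 pairs, as given by RefSeq from 250 bases before to 50 after the start, were matched exactly to mm9. Capitals mark TGCCGC or its reverse complement GCGGCA, the core letters bound by ZFP57, a zinc-finger protein known to keep imprints on methylated DNA.
Mcts2, chr2:152512634-152512933, plus strand: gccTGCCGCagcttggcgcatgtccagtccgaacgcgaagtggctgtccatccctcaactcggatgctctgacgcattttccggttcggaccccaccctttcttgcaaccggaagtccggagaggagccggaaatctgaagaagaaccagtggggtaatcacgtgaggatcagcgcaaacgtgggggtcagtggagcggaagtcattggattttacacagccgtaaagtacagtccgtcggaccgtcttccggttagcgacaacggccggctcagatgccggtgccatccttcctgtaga
H13, chr2:152494947-152495246, plus strand: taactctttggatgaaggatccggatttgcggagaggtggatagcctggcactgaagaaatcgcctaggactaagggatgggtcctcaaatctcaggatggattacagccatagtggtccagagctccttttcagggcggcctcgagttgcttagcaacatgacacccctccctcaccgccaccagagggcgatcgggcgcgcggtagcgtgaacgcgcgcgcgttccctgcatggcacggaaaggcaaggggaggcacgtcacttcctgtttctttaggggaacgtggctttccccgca
Nnat, chr2:157385564-157385863, plus strand: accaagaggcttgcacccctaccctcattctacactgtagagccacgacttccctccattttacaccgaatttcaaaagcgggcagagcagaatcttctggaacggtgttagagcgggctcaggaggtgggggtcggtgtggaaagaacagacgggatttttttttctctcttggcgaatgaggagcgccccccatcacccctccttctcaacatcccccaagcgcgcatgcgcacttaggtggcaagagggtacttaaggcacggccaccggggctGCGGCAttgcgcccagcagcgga
Blcap, chr2:157392048-157392347, minus strand: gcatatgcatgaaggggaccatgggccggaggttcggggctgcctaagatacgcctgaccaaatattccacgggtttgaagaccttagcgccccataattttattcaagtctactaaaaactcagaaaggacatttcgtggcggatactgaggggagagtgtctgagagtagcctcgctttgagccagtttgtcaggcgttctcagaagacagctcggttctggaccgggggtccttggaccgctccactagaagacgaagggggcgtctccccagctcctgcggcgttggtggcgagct

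The 2 intronic promoters held the letters once each, and the 2 host promoters held them 0 times. The *Blcap* promoter shown lies inside the annotated gene, which reaches upstream to 157397010, and that end was not searched. Over all 32851 RefSeq promoters of this length, 11.6% held them at least once on either strand. The promoter of *Mcts2* held 25 CG pairs and that of *H13* held 21, against a median of 7 over all promoters, while *Nnat* and *Blcap* held 17 each.

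In F1 embryos *H13* and *Blcap* were read more from the maternal copy and *Mcts2* and *Gnas* more from the paternal copy, while *Nnat* had no votes. A vote is a read that covers a difference between the strains and is assigned to the B6 or the Cast copy, and the B6 allele fraction (BAF) is the B6 share of the votes. A gene was called imprinted when pooled votes differed from equal shares in both crosses (binomial test, Bonferroni-adjusted p under 0.01) with opposite higher alleles. This held for 4 of the 5 members tested, against 1.36% of 11903 genes. With a quasi-binomial test, which takes the spread between embryos into account, 1 member passed (*Blcap*), and the larger Bonferroni-adjusted p of the crosses was 0.561 for *Gnas*, 0.214 for *H13* and 0.0970 for *Mcts2*. *H13* and *Blcap* were higher from the maternal allele, as were 1.13% of the genes tested, and *Mcts2* and *Gnas* from the paternal allele, as were 0.235%. These percentages include genes of the X chromosome.

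*Mcts2* was almost wholly paternal. Its BAF had its lowest, median and highest value at 0, 0.0235 and 0.0732 in B6 × Cast embryos and at 0.857, 0.988 and 1 in Cast × B6 embryos. The crosses did not overlap, and the mean BAF differed by -0.921 (B6 × Cast minus Cast × B6, exact permutation test, p = 0.000155, the smallest that 8 against 8 embryos allow). Over both crosses 17 of 703 votes (2.42%) came from the maternal copy. The depth behind single embryos was low, with 4 to 43 votes in B6 × Cast.

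The host *H13* was partly maternal. Its BAF ran from 0.607 over a median of 0.673 to 0.719 in B6 × Cast embryos, and from 0.198 over 0.227 to 0.303 in Cast × B6 embryos. All 8 embryos of each cross thus lay on the maternal side, and the paternal copy gave 33.7% of 7218 votes in the first cross (95% Wilson interval 32.6% to 34.8%) and 22.5% of 9290 votes in the second (21.6% to 23.3%). The mean BAF differed by 0.435 between the crosses (exact permutation test, p = 0.000155).

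*Blcap* was biased in the same direction and had the smallest SD of the 5 members in both crosses, 0.0173 and 0.0178. Its BAF ran from 0.749 over 0.770 to 0.810 in B6 × Cast and from 0.272 over 0.289 to 0.320 in Cast × B6. The paternal share was 23.1% of 4587 votes (21.9% to 24.3%) and 28.9% of 3761 votes (27.5% to 30.4%). The bias is that of a whole embryo, in which a change in the share of a cell type and a change in RNA per cell cannot be told apart. Its intronic gene *Nnat* had 0 votes among 2798293 reads in F1 embryos, so that its parental origin was not measured.

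*Gnas* votes came mostly from the paternal copy, but they stood for few of its reads. The BAF ran from 0.0526 over 0.132 to 0.25 in B6 × Cast and from 0.778 over 0.914 to 1 in Cast × B6, with no overlap (difference in means -0.767, exact permutation test, p = 0.000155). The paternal share was 85.7% of 154 votes and 91.4% of 151 votes. These 305 votes equal 0.0887% of the 343718 *Gnas* reads, against a median of 16.1% over genes with at least 100 reads. The votes therefore cover a small piece of the gene, and the tables do not say of which of its transcripts.

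*Sfmbt2* showed no parental bias that the test called. Its BAF ran from 0 to 0.784 in B6 × Cast and from 0.571 to 1 in Cast × B6, on 175.75 and 88 votes (fractional votes are kept as deposited), and the ranges overlapped. The pooled BAF was 0.643 (0.569 to 0.709) and 0.636 (0.532 to 0.729), and the mean over embryos differed by -0.139 (exact permutation test, p = 0.198). The paternal copy gave 35.7% of the votes in the first cross and 63.6% in the second.

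**Figure D1:**
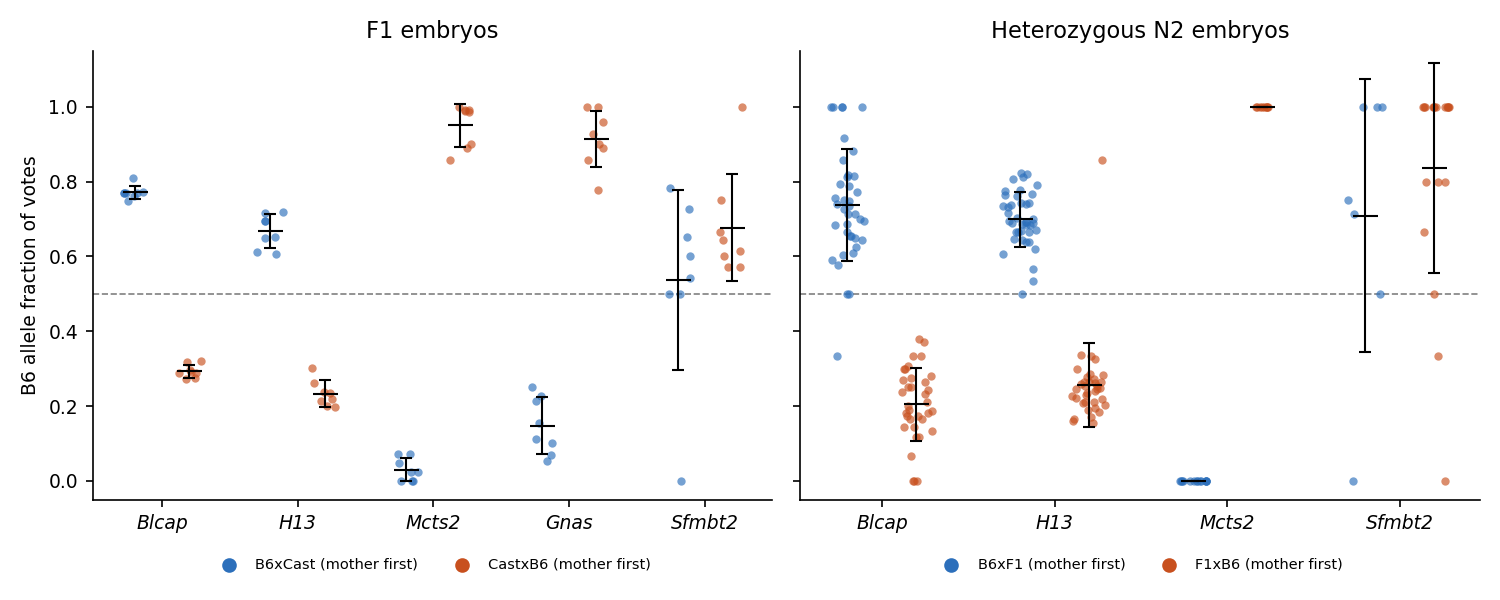
B6 allele fraction of votes (y axis) for members with votes (x axis), in F1 embryos on the left and heterozygous N2 embryos on the right. *Gnas* and *Nespas*, with 3 and 2 votes in heterozygous N2 embryos, are not drawn on the right. Each point is an embryo, black bars are mean ± SD, the dashed line is an equal share, and *Mcts2* lies at 0 or 1 in the N2 embryos with votes, opposite to *H13* and *Blcap*.

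In backcross embryos *H13*, *Blcap* and *Mcts2* were biased to the same parent as in F1 embryos. By the binomial test 3 of the 4 members tested were called, against 0.358% of 9215 genes. *Mcts2* had 60 Cast votes and 0 B6 votes in 14 heterozygous embryos of B6 mothers, which were in lanes A, B, F and I. It had 67 B6 votes and 0 Cast votes in 9 embryos of F1 mothers. All of these were in lane C except 1 embryo of lane L, which had 1 vote, so that this side rests almost wholly on a single lane. The 0 maternal votes among 127 allow a maternal share of up to 2.36%, near the share measured in F1 embryos. Such limits cover counting error only, since the reads carry no molecular identifiers. In B6/B6 embryos, where a Cast vote is an error, 5 *H13* votes against 6495 for B6 (0.0769%) and 2 *Blcap* votes against 3752 (0.0533%) were Cast, and 0.194% were over all autosomal genes.

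*H13* and *Blcap* kept a partial bias in N2 embryos. The paternal share of *H13* was 30.1% of 2884 votes (28.4% to 31.8%) in 41 heterozygous embryos of B6 mothers and 23.6% of 3575 votes (BAF interval 0.222 to 0.25) in 36 of F1 mothers. That of *Blcap* was 28.5% of 1838 votes (26.5% to 30.6%) in 39 embryos and 22.2% of 1374.5 votes (BAF interval 0.2001 to 0.244) in 35. With at least 20 votes per embryo, the BAF of *H13* lay between 0.5 and 0.823 in 38 embryos of B6 mothers and between 0.156 and 0.337 in 34 of F1 mothers, and that of *Blcap* between 0.578 and 0.818 in 24 and between 0.0667 and 0.378 in 26. At that depth the ranges of the 2 mothers did not overlap for either gene, and the *H13* value of 0.5 came from 1 embryo with 62 votes. One embryo of an F1 mother, with 7 *H13* votes, had a BAF of 0.857 and stood apart from the others. The same embryo had 1 *Blcap* vote and the lowest *Nnat* level of its lane G, 118 RPM against a lane median of 8870 RPM.

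The mean BAF over embryos differed between the mothers by 0.443 for *H13*, by 0.531 for *Blcap* (permutation test, p = 1e-05 for each, the smallest that 100000 permutations can give) and by -1 for *Mcts2* (permutation test, p = 2e-05). *Sfmbt2* had a pooled BAF of 0.654 on 26 votes and of 0.826 on 46 votes and was not called. *Gnas* had 3 votes and *Nespas* 2 in heterozygous N2 embryos, which is too few to test. Over all N2 embryos *Gnas* had 9 votes, equal to 0.00133% of 679202 reads, against 0.0887% in F1 embryos. Why this share differed was not tested. The difference between the crosses was set against that between the N2 mothers by permuting generation within each direction. For *H13* the 2 differences differed by -0.00788 (permutation test, p = 0.864), for *Blcap* by -0.0529 (p = 0.419) and for *Sfmbt2* by -0.0113 (p = 0.955), over embryos with at least 1 vote. For *Mcts2*, with 1 to 12 votes in single N2 embryos, the difference of 0.0792 had p = 1e-05 (permutation test), while the pooled maternal votes, 17 of 703 against 0 of 127, gave p = 0.0909 in Fisher's exact test.

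The mean BAF of both crosses differed from equal shares for *H13*, *Blcap* and *Sfmbt2*, a share of the members near that over all genes. In a limma fit over embryos with votes as weights, the mean BAF of the 2 crosses differs from 0.5 where one strain's copy is read more whichever parent gave it. In F1 embryos this strain part passed the test (Benjamini-Hochberg-adjusted p under 0.05) for 3 of 5 members, against 49.3% of all genes. *H13* had a mean BAF of 0.444 ± 0.00825 (SE, adjusted p = 1.32e-05), *Blcap* of 0.529 ± 0.00441 (adjusted p = 1.8e-05) and *Sfmbt2* of 0.640 ± 0.0355 (adjusted p = 0.00289). The Cast copy was thus higher for *H13* and the B6 copy for *Blcap* and *Sfmbt2*, as were 24.6% of genes in each direction. Without vote weights, or between litters of like stage, *Sfmbt2* did not pass. The mean BAF of *Mcts2* was 0.509 (adjusted p = 0.558) and that of *Gnas* 0.528 (adjusted p = 0.275). In the same fit the part of the parent of origin passed for 4 of 5 members, against 3.39% of all genes.

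In N2 embryos 3 of 4 members passed for strain, against 52.4% of all genes. *H13* was again below an equal share at 0.468 ± 0.0075 (SE, adjusted p = 0.000145) and *Sfmbt2* above it at 0.740 ± 0.0502 (adjusted p = 0.000141), where 25.6% and 26.7% of genes passed with the Cast and the B6 allele higher. The part of the parent of origin passed for *H13*, *Blcap* and *Mcts2*, against 1.09% of genes. *Blcap* was at 0.468 ± 0.00881 (adjusted p = 0.00142), on the Cast side and so opposite to F1 embryos. The mean BAF of *Blcap* was higher in F1 than in N2 embryos by 0.0616 over embryos with at least 1 vote (permutation test within each direction, p = 0.0561) and by 0.0713 over those with at least 20 (p = 0.00039). F1 reads were trimmed to a shorter length than N2 reads, and the part of this in the difference was not tested. Without vote weights the N2 strain part did not pass for *H13* (adjusted p = 0.111) or *Blcap* (adjusted p = 0.113).

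Votes of the maternal *H13* copy were higher in embryos where it was Cast. The embryos compared differ in stage, litter and sequencing run between the F1 crosses, and mostly in lane between the N2 mothers. The tests hold no term for these, and their part was not tested. Counted as votes per 1000000 reads on genes, a maternal B6 copy of *H13* gave 21.9 ± 4.38 in B6 × Cast embryos, with a range of 16.6 to 30.9, and a maternal Cast copy 30.6 ± 4.58 in Cast × B6 embryos, with a range of 25.2 to 36.9 (mean ± SD, n = 8 each). The maternal Cast copy was 1.40 times as high, with ranges that overlapped (exact permutation test, p = 0.00264), while the paternal copies gave 10.8 and 9.24 (exact permutation test, p = 0.112). In N2 embryos the maternal Cast copy was 1.49 times as high, at 34.8 ± 11.5 in 36 embryos against 23.4 ± 9.57 in 41 (permutation test, p = 2e-05), and the paternal copies gave 10.9 and 10.2 (permutation test, p = 0.457). *Blcap* gave 16.1 ± 3.25 from a maternal B6 copy and 11.2 ± 2.82 from a maternal Cast copy in F1 embryos (exact permutation test over 8 against 8, p = 0.00917), a ratio of 0.700. In N2 embryos the ratio was 1.08 (p = 0.632). In all, 14 comparisons of this kind were made, and those of *Gnas* and *Mcts2* had p from 0.0648 to 1 (exact or 100000-fold permutation tests). These comparisons rest on the same votes as the strain part and are no independent support for it.

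**Figure D2:**
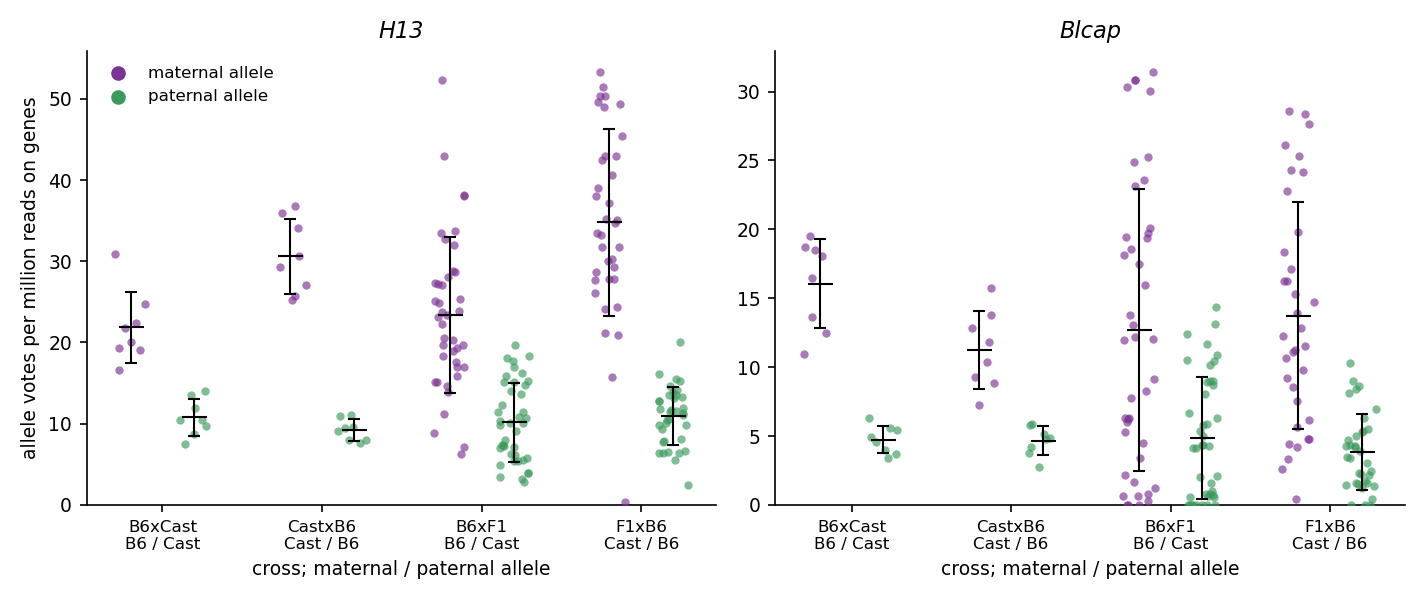
Votes of the maternal (purple) and paternal (green) allele per 1000000 reads on genes (y axis) for *H13* and *Blcap* in each cross (x axis, with the strain of the maternal and the paternal allele). Points are F1 or heterozygous N2 embryos, bars are mean ± SD, and maternal *H13* is higher where it is Cast, at 30.6 and 34.8 in these units.

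Total expression in F1 embryos was compared between the crosses with edgeR's quasi-likelihood test, with all p-values adjusted by Benjamini-Hochberg. All 7 members passed the filter on low counts, and 2 of them were called, both higher in Cast × B6, against 25.9% of 14625 genes. They were *Nespas* and *Gnas*, which share exon bases as given above, so that the 2 calls need not be independent. *Nespas* had only 15 to 118 reads in single F1 embryos. *Nespas*, the antisense transcript of the *Gnas* locus, ran from 0.955 over 1.34 to 2.54 RPM in B6 × Cast and from 2.12 over 2.46 to 4.83 RPM in Cast × B6. The ranges overlapped, and the log2 difference (Cast × B6 over B6 × Cast) was 1.00 ± 0.23 (SE, adjusted p = 0.00531). *Gnas* ran from 407 over 547 to 1077 RPM and from 593.5 over 835 to 1648 RPM, with a log2 difference of 0.58 ± 0.20 (adjusted p = 0.0406) that did not pass without a filter (adjusted p = 0.0664), with library totals (0.106), or without litter 5 of B6 × Cast (log2 0.21, 0.596), litter 1 of Cast × B6 (0.68, 0.0850) or litter 2 of Cast × B6 (0.49, 0.0817). Without litter 2 of Cast × B6 *Mcts2* (log2 0.35, adjusted p = 0.0283) and *H13* (0.24, 0.0313) passed as higher and *Nnat* (-0.67, 0.00931) as lower in Cast × B6.

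Between the litters of like stage, 10.7% of genes were called. These litters also differed in sequencing run, as given above. *Nespas* had a log2 difference of 1.14 ± 0.31 (edgeR, adjusted p = 0.0397) and *Gnas* of 0.95 ± 0.23 (adjusted p = 0.0247). The litter means of *Gnas* were 861 and 485 RPM in B6 × Cast and 789 and 995 RPM in Cast × B6, so that the litter means of B6 × Cast lay farther apart than the means of the crosses. *Nnat* was at 4063 ± 1114 RPM in the youngest litter (SD, n = 4) and between 6827 and 7660 RPM in the means of the other 3 litters. Its log2 difference between the crosses was -0.26 ± 0.18 (adjusted p = 0.290) over all embryos and 0.05 between litters of like stage. *Mcts2* was at 25.4 ± 2.31 and 29.01 ± 4.08 RPM (SD, n = 8 each), *H13* at 334.6 ± 21.1 and 348.7 ± 30.8, *Blcap* at 70.2 ± 7.80 and 59.7 ± 6.25 and *Sfmbt2* at 1.65 ± 0.948 and 1.00 ± 0.742. Their adjusted p lay between 0.0762 and 0.245. The log2 difference of *H13* was 0.12 ± 0.08 (SE).

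**Figure D3:**
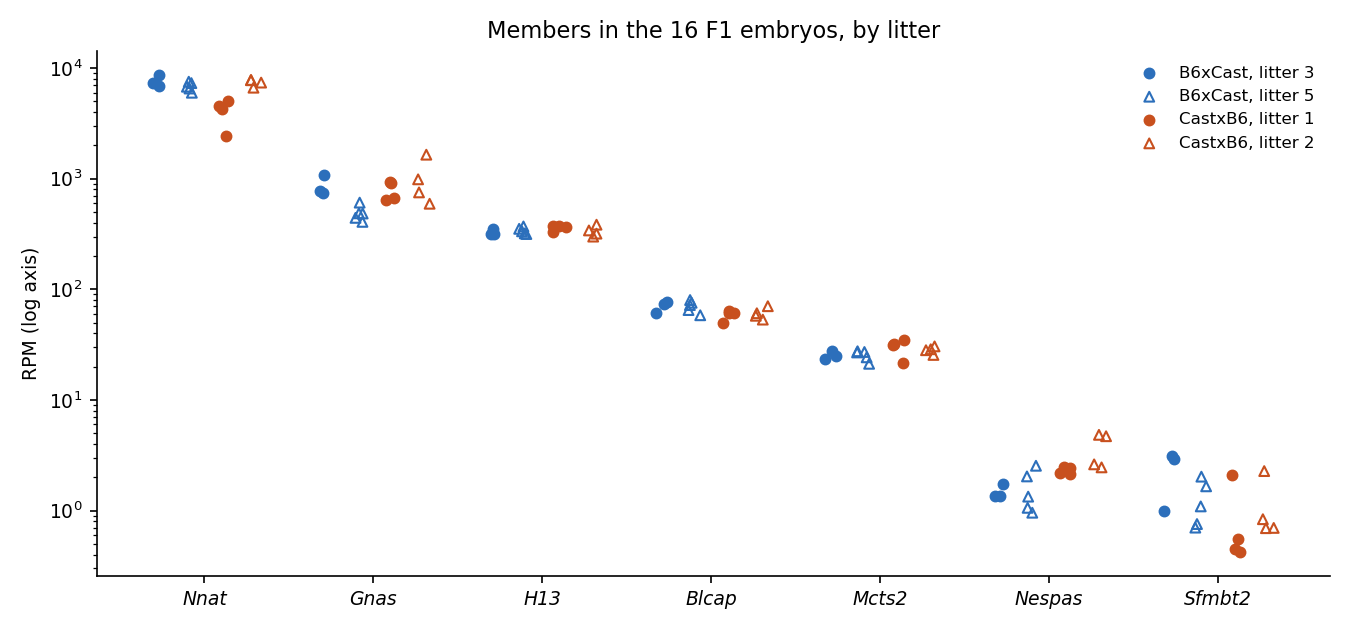
RPM (y axis, log scale) of each member (x axis) in the 16 F1 embryos, one point per embryo, by litter. *Nespas* lies between 2.12 and 4.83 RPM in Cast × B6 embryos, and *Nnat* is lowest in litter 1 of Cast × B6, the youngest. Heights are to be read within a gene, not between genes.

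In N2 embryos the level of *Gnas* varied with sequencing lane more than that of most genes. Nearly all lanes held embryos of a single genotype of mother. The variance that lane accounts for thus exceeds that of mother almost by design, and these shares are not compared. Lane accounted for 79.1% of the variance in ranks of *Gnas*, more than for 96.3% of genes, and for 60.4% of that of *Nnat*, against a median of 59.4% over all genes. Median *Gnas* was between 299 and 665 RPM in lanes A to I and between 2687 and 7029 RPM in lanes J to N. The medians of the last 5 lanes thus lay above those of all 9 earlier ones. *Nnat* medians ran from 706 RPM in lane A to 8870 RPM in lane G, and single embryos of lane G ran from 118 to 10033 RPM. The other members had lane shares of 31.3% (*Nespas*) to 60.8% (*Mcts2*). Litter accounted for 66.6% of the variance in ranks of *Gnas* and 63.2% of that of *Nnat*, against a median of 59.8% over all genes. Mother accounted for 0.549% and 14.5%, against a median of 1.58%.

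The mother's genotype was compared with the Mann-Whitney test of RPM for autosomal genes whose mean reached 5 RPM, as it did for 6 of the 7 members (Bonferroni-adjusted p under 0.01). Of these 6, 0 were called, against 5.03% of 9733 genes (4.28% higher with an F1 mother). Among all 9733 genes 3917 had an unadjusted p under 0.05, and among the 6 members 2 had. They were *Nnat*, with a mean of 3344 ± 2624 RPM in B6 × F1 and 5523 ± 2825 RPM in F1 × B6 (SD, n = 89 and 65, Bonferroni-adjusted p = 0.0252), and *H13*, with 229 ± 45.0 and 267 ± 57.0 RPM (adjusted p = 0.440). DESeq2 called *H13*, at a log2 difference of 0.21 (Bonferroni-adjusted p = 0.000529), and edgeR called 0 members. With lane as a random block in limma voom the log2 difference was 0.11 for *H13* (unadjusted p = 0.447) and 0.68 for *Nnat* (unadjusted p = 0.221). The difference in *Nnat* was 1.19 on the log2 scale in flowcell 1 and -0.24 in flowcell 2.

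**Figure D4:**
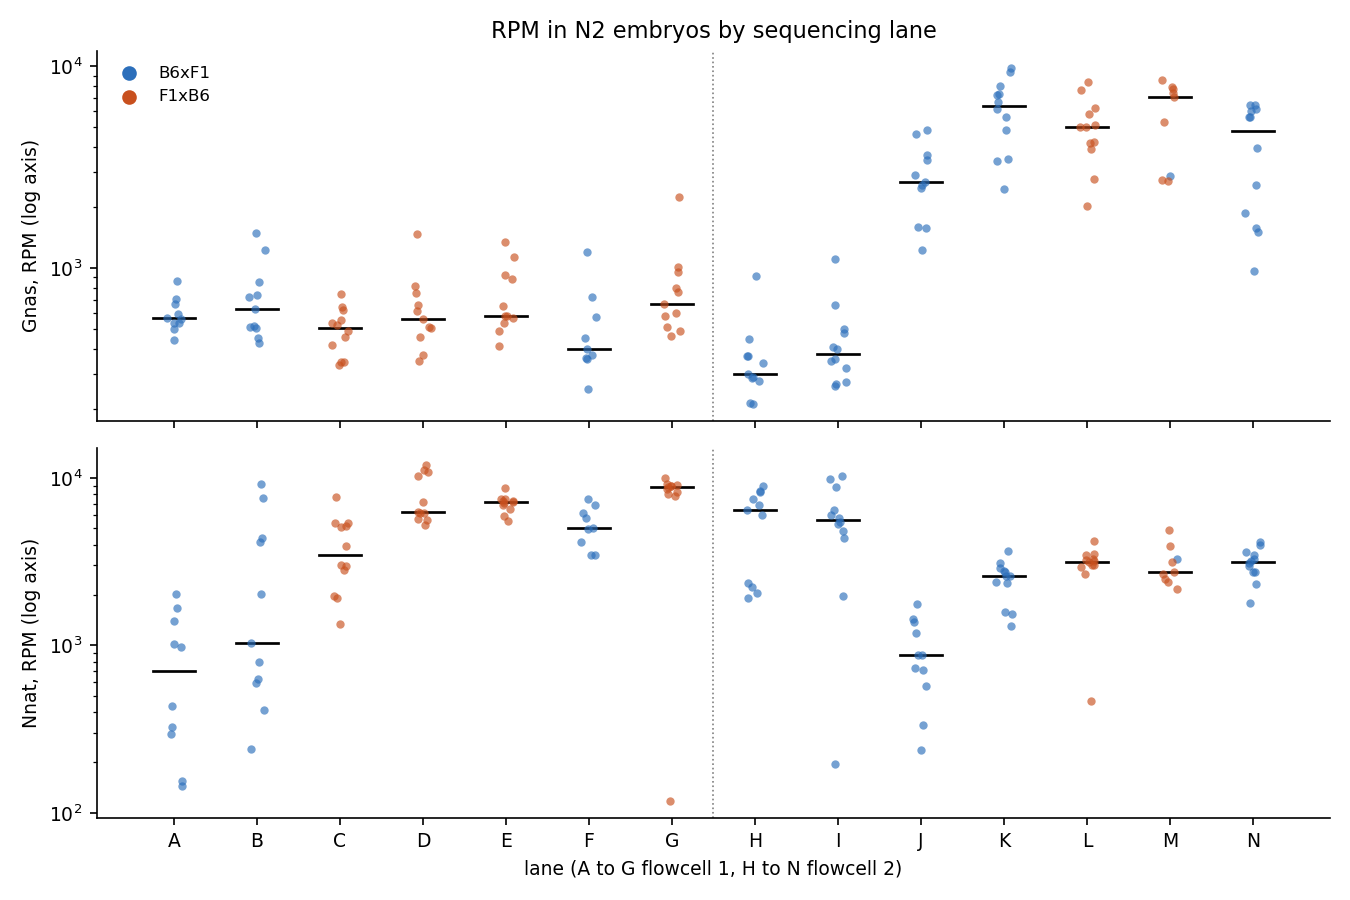
RPM (y axis, log scale) of *Gnas* (top) and *Nnat* (bottom) in N2 embryos by lane (x axis); blue points are embryos of B6 mothers, orange points are embryos of F1 mothers, and black lines are lane medians. *Gnas* medians are 299 to 665 RPM in lanes A to I and 2687 to 7029 RPM in lanes J to N.

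Heterozygous were then compared with B6/B6 embryos of the same mothers, and for *H13* both genotypes occurred in all 14 lanes. In embryos of F1 mothers *H13* was the 1 member called of 6 (Mann-Whitney test, Benjamini-Hochberg q under 0.01), as were 6.39% of 9733 genes. With a maternal Cast copy, 36 embryos ran from 214 over 293 to 503 RPM, and without it 29 embryos ran from 172 over 229 to 292 RPM. The ranges overlapped, and heterozygous embryos were higher by 25.5% (q = 0.000272), or by 0.19 on the log2(RPM + 1) scale with lane means removed (q = 0.00171, where 11.1% of genes passed). In embryos of B6 mothers, where the Cast copy is paternal, 41 heterozygous embryos had 228 ± 47.7 RPM and 48 B6/B6 embryos 231 ± 43.0 RPM (SD, q = 0.965), and 0 of 6 members were called there, against 6.14% of genes. Over both mothers together 0 of 6 were called, against 12.2% of genes, and 0 with lane means removed, against 19.7%.

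The log2 genotype effect on *H13* was larger in embryos of F1 than of B6 mothers by 0.34 (residual permutation test, p = 0.00029), by 0.31 with lane terms (p = 0.00036) and by 0.32 with litter terms (p = 0.00012). In a least-squares fit of this difference for all 9733 genes with lane terms, *H13* had the 15th smallest p, with a Benjamini-Hochberg-adjusted p of 0.239 over all genes, and 2 genes (0.0205%) were called. In the allele votes, too, a maternal Cast copy gave more than a maternal B6 copy, and in N2 embryos both measures come from the same libraries.

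Of the other members in embryos of F1 mothers, heterozygous *Blcap* embryos had 71.5 ± 13.6 RPM and B6/B6 embryos 60.8 ± 13.3 RPM (SD, n = 35 and 30, q = 0.0207). *Nnat* had 4537 ± 2684 and 6673 ± 2574 RPM in the same embryos (q = 0.0299). Neither passed, and with lane means removed q was 0.188 and 0.762. In embryos of B6 mothers *Gnas* had 2433 ± 2630 RPM in 46 heterozygous and 1714 ± 2148 RPM in 43 B6/B6 embryos (q = 0.437). With lane means removed, *Gnas* was higher in heterozygous embryos by 0.50 on the log2 scale (q = 0.00371) and was the 1 member called, against 10.5% of genes. In embryos of F1 mothers the same difference was -0.04 (q = 0.872). The genotype effect differed between the mothers by -0.56 with lane terms (residual permutation test, p = 0.00572), by -0.33 without them (p = 0.523), and with an adjusted p of 0.675 in the fit of all genes. In lanes F, H and I, libraries F01, H01 and I01 had the highest *Gnas*, at 1209, 916 and 1110 RPM. All of them were heterozygous embryos of B6 mothers. In lanes C, D, E and G, of F1 mothers, the highest were C01, D01, E01 and G01 (749, 1477, 1344 and 2265 RPM). Of these D01 and G01 were B6/B6. Removing lane means leaves such values in place, and their part in the genotype differences was not tested.

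**Figure D5:**
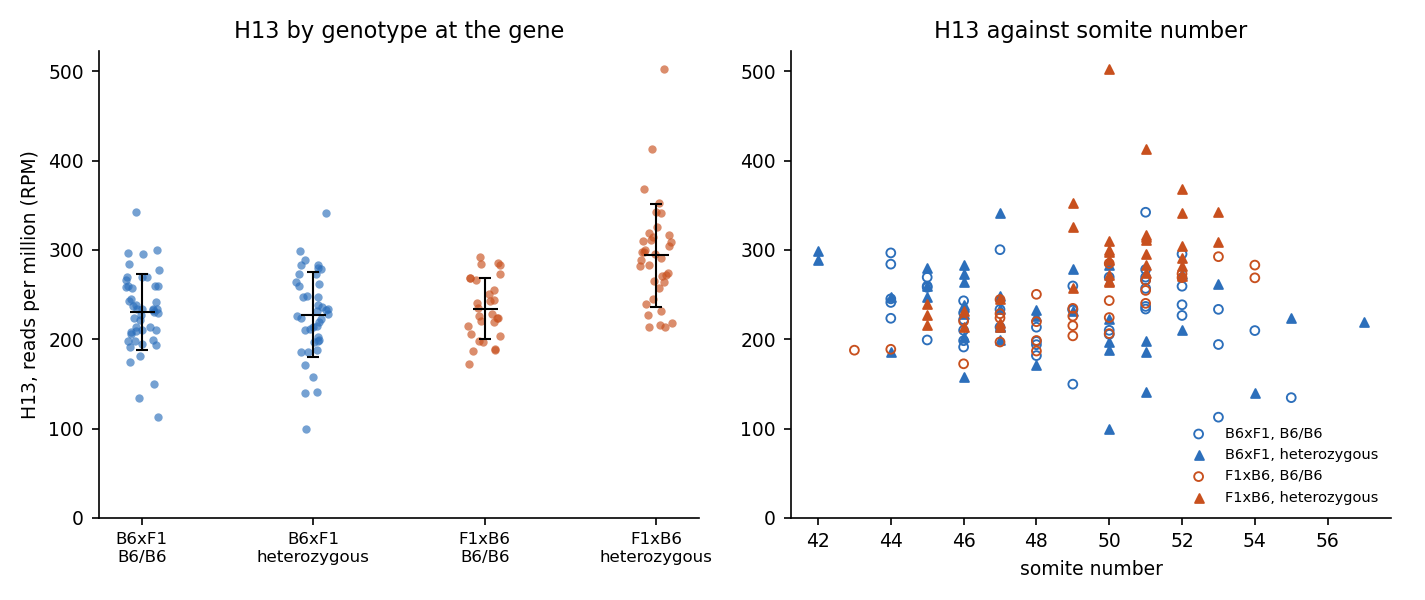
*H13* RPM (y axes) in N2 embryos by mother and genotype at the gene (left, bars are mean ± SD) and against somite number (right). Heterozygous embryos of F1 mothers average 294 RPM, and the other 3 groups average 228 to 234 RPM.

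The intronic genes were then set against their hosts across embryos, on log2(RPM + 1). *Mcts2* and *H13* correlated over 154 N2 embryos with Spearman's rho of 0.271 (permutation test, p = 0.00076) and Pearson's r of 0.186 (p = 0.021), or 0.271 without the 2 embryos farthest from the median of *Mcts2*. With lane means removed rho was -0.223 (p = 0.00559) and r was -0.302, so that the sign turned, and it was -0.213 and -0.209 in embryos of B6 and F1 mothers. Over the 16 F1 embryos rho was 0.106 (permutation test, p = 0.696). *Nnat* and *Blcap* had rho of -0.208 (p = 0.00953) and r of -0.165 (p = 0.0404), or -0.192 without the 2 farthest embryos, and rho of -0.175 with lane means removed (permutation tests). *Nespas* and *Gnas* had rho of 0.0708 (p = 0.381), r of 0.0901 (p = 0.267) and rho of -0.124 with lane means removed (permutation tests). These are weak relations over embryos that share lanes and litters.

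Stage was recorded as somite number in 147 N2 embryos. *Blcap* rose with somite number, the 1 member called among 6 (Spearman's rho, q under 0.05), against 22% of 10007 genes (14.1% rising). Its rho was 0.359 (q = 0.000166) over all embryos, 0.433 in 85 of B6 mothers and 0.322 in 62 of F1 mothers, and 0.225 (q = 0.0674) with lane regressed out, where 11.5% of genes passed. Pearson's r was 0.314 (permutation test, p = 0.00011) and 0.307 without the 2 embryos farthest from the median stage. *H13* had rho of 0.205 (q = 0.0559) over all embryos, of 0.706 in embryos of F1 mothers, where 23.1% of genes passed, and of -0.242 in embryos of B6 mothers, where 51.6% did. Pearson's r was 0.647 (permutation test, p = 1e-05) and -0.283 (p = 0.00858) in these embryos, or 0.604 and -0.300 without the 2 farthest.

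With lane regressed out, *H13* kept rho of 0.539 in embryos of F1 mothers (q = 0.0044), where 2.73% of genes passed, and had 0.0442 in those of B6 mothers, where 7.04% passed. The slopes were 0.053 and -0.0072 log2 units per somite, and they differed by 0.060 (residual permutation test with lane terms, p = 0.00586, adjusted p over all genes 0.450, 0.00999% of genes called). Without removal of lane, rho in embryos of F1 mothers was 0.614 in 34 heterozygous and 0.761 in 28 B6/B6 embryos. In embryos of B6 mothers it was -0.412 in 40 heterozygous and -0.119 in 45 B6/B6 embryos. *Mcts2* turned sign between mothers, at -0.388 and 0.334, and was at -0.0095 with lane regressed out. The BAF of *H13* and *Blcap* gave 0 calls against somite number (Spearman's rho, q under 0.1), where 2.54% and 0.0892% of genes were called in embryos of B6 and F1 mothers (2.13% and 0.0955% with 10 votes per embryo). The unadjusted p was under 0.05 for *H13* in embryos of B6 mothers alone, with rho of 0.428 (q = 0.174) and of -0.326 with lane regressed out.

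Other genes were grouped to place the members. Of 40 imprinted genes on other chromosomes 36 could be tested in F1 embryos, and 10 were called with the maternal and 21 with the paternal allele higher. The maternal ones include *H19* and *Cdkn1c*, an inhibitor of the cell cycle, with BAF differences of 0.980 and 0.986, and the paternal ones the growth factor *Igf2* at -0.987 and the Notch-like ligand *Dlk1* at -0.845. The differences of 0.438 for *H13* and 0.480 for *Blcap* between pooled votes were smaller than these 4. In N2 embryos 8 and 17 of 28 tested were called. None of 10 tested factors that keep or set imprints and none of 21 tested partners in Gs signalling was called imprinted in F1 embryos, and of 9 tested neuron markers the X-linked *Dcx* was called (0.534).

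Of the annotated chromosome 2 genes within 500 kb of a member, 0 were called in F1 embryos, among 20 tested near *H13* and *Mcts2*, 12 near *Blcap* and *Nnat*, 8 near *Gnas* and *Nespas* and 7 near *Sfmbt2*. The median absolute BAF difference between the crosses was 0.0640, 0.0495, 0.0257 and 0.0706 near these loci.

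For expression by cross, 4 of 11 tested imprint factors were called, all 4 higher in Cast × B6, among them the DNA methyltransferases *Dnmt3b* (log2 1.34) and *Dnmt1* (0.60), the histone methyltransferase *Setdb1* (0.41) and *Uhrf1* (0.88), which guides Dnmt1 to replicated DNA. Of 24 Gs partners 2 were higher (*Prkacb*, a catalytic subunit of protein kinase A, log2 0.53, and its regulatory subunit *Prkar2a*, 0.79) and 3 lower, among them the adenylyl cyclase *Adcy2* (-0.91) and the G protein subunit *Gnal* (-0.52). The share called over all genes was 25.9%. Of 13 relatives and partners of the members 10 were tested and 3 called, the calcium pump *Atp2a2* (0.61) and its inhibitor *Pln* (0.35) and the factor *Yy1* (0.72), all higher in Cast × B6. Of 11 neuron markers *Elavl3* was called (-0.62), and of 8 erythroid markers *Hbb-bh1* was higher (1.69) and 3 were lower, among them *Slc4a1* (-0.75). Of 38 tested imprinted genes on other chromosomes 4 were higher and 11 lower in Cast × B6, among the latter *Meg3* (-1.18), *Kcnq1ot1* (-1.15), *Grb10* (-1.05) and *Slc22a18* (-1.02). Of 3 tested placenta and yolk sac markers *Ttr* and *Apom* (log2 -0.90) were lower, and the summed level of that list ran from 376 over 490.2 to 919 RPM in B6 × Cast and from 158.5 over 284 to 388 RPM in Cast × B6. The part of such tissue in the expression differences was not tested. Stage differed between the crosses, as given above, and its part in these counts was not tested.

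By mother, *Cdkn1c* (log2 0.89) was the 1 gene called in the 7 lists, while 5.03% of all genes were called. Against somite number 22% of all genes were called (14.1% rising). The lists gave 4 rising and 2 falling of 29 imprinted genes, 4 rising of 20 Gs partners and 0 of 10 imprint factors. They also gave 3 rising and 2 falling of 7 erythroid markers and 2 falling of 10 relatives and partners of the members. The maternally expressed RNA *Meg3* had rho of 0.362 and the adenylyl cyclase *Adcy5* rho of 0.465. Of 9 neuron markers *Tubb3* rose (0.372), and of 2 tested placenta and yolk sac markers both *Ttr* (0.567) and *Apom* (0.456) rose. Their part in the rise of *Blcap* was not tested.

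The genes most like each member over the 154 N2 embryos, by Spearman's rho of lane-centred log2(RPM + 1), were *Zfp68* (0.748) and *Twsg1* (0.730) for *Gnas*, *Zbtb22* (0.804) and *Zfp787* (0.797) for *Nnat*, *Drap1* (0.701) and *Fez1* (0.663) for *Blcap*, *Camk1* (0.649) and *Gtpbp1* (0.620) for *H13*, and *Ndufaf2* (0.556) and *1500012F01Rik* (0.539) for *Mcts2*. For *Nespas* they were *A930013F10Rik* (0.621) and *Dpysl3* (0.571), and for *Sfmbt2* they were *Arih1* (0.527) and *Pum2* (0.520). No member was among the genes most like another member. These values describe embryos that share lanes and litters.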

How the data were processed

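The tables hold 3SEQ of single E11.5 embryos. The authors trimmed reads (F1 reads to a common, shorter length), mapped them with Bowtie2 to mm9 B6 and Cast genomes, discarded reads whose next-best position was within 3 edits, and deposited raw read counts on RefSeq exons. The authors also deposited allele votes as estimated counts, which need not be whole, and genotype codes per gene and embryo, which they had called from the votes along each chromosome. The coding sequence of *Mcts2* is 84.8% identical to that of *Mcts1*, so that close reads of the 2 genes may have been dropped or shared.

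RPM was computed as the count divided by all counts on genes of the embryo, times 1000000. Groups, litters, lanes and stage were read from the labels. Of 168 N2 columns, 154 had a mother and genotypes, 6 had a mother only, and 8 had no mother in the labels and entered no comparison. No other column was left out. Tests were binomial (pooled votes rounded to whole numbers, at least 20 votes per cross), limma 3.58.1 with votes as weights, edgeR 4.0.16 with TMM, Mann-Whitney and Spearman over genes with at least 5 RPM, and permutation tests with 100000 draws, or all 12870 arrangements for 8 against 8 F1 embryos, all two-sided. DESeq2 1.42.0 and limma voom were alternatives. Shares have 95% Wilson intervals. R 4.3.3 and Python 3.11.15 with scipy 1.17.1 were used, and the test functions were tested on simulated data.

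The members, gene lists and tests were chosen with earlier results of these data known. The text names all 7 members, neighbours within 500 kb that were called, up to 4 called genes per list by smallest p, and the 2 genes most like each member. The genotype by mother, somite by mother and scaled vote comparisons were added after the data were seen, as was the minimum of 20 votes per embryo. Promoters are RefSeq sequences of GRCm38.p6, for 6 of the 7 members, placed on mm9 by exact match.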

Additional observations from a re-analysis of the deposited data

Results flagged for a closer look

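Chance flags about 1 in 20 groups, and 4 of 24 groups of 8 F1 embryos held a value far from the rest. In B6 × Cast replicate 6 the BAF of *Blcap* was 0.810, next to 0.772, and that of *Sfmbt2* was 0, next to 0.5, the latter on 5 votes. In Cast × B6 the *Gnas* level of replicate 6 was 1648 RPM, next to 987 RPM, and the *Sfmbt2* BAF of replicate 8 was 1, next to 0.75, on 2 votes.

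The parent-of-origin difference of *Mcts2* had a value smaller in F1 than in N2 embryos by 0.0792 (p = 1e-05, permutation test), but single N2 embryos held 1 to 12 votes, and the maternal votes, 17 of 703 against 0 of 127, gave p = 0.0909 in Fisher's exact test. The *H13* difference between heterozygous and B6/B6 embryos was larger by 0.34 log2 units with F1 than with B6 mothers (p = 0.00029, residual permutation test), and the change of *H13* per somite was larger by 0.060 log2 units with lane terms (p = 0.00586). None of these was adjusted over all genes, and in fits of all genes the *H13* differences had adjusted p of 0.239 and 0.450.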

How the results depend on the processing

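No paired analysis was possible because embryo and litter numbers do not tie embryos of one group to those of another. The cause of the changes below was not tested. Members called imprinted numbered 4 in F1 embryos under every other alternative and 1 with the quasi-binomial test, where the larger adjusted p of the 2 crosses was 0.561 for *Gnas*, 0.214 for *H13* and 0.0970 for *Mcts2*. Over all genes 162 were called, 49 with limma, 16 with the quasi-binomial test and 73 without litter 3 of B6 × Cast. In N2 embryos they numbered 3, or 2 with a minimum of 100 votes, in flowcell 2 alone or with 20 votes per embryo (33 genes in all, 20 with the last). Members with a strain part in N2 numbered 3, or 1 without weights. By cross, 2 members were called, 1 without a filter or with library totals, and 1 to 4 without single litters. By mother 0 were called, 1 with DESeq2 and 2 with Benjamini-Hochberg adjustment (490 genes in all, 212 in flowcell 1, 24 in flowcell 2 and 0 with litter means, lane means or a lane block). With somite number 1 was called, 0 with lane regressed out, with litter means, or in embryos of B6 mothers with lane regressed out, 3 within B6 or F1 mothers alone, and 2 in flowcell 2, without a filter or with TMM-scaled CPM. By genotype with B6 mothers 0 were called, and 1 with lane means removed. Signs turned as follows. The origin difference of *Sfmbt2* was -0.120 and -0.0237 without litter 3 of B6 × Cast or litter 1 of Cast × B6, -0.139 without weights and -0.150 in litters of like stage, and the strain part of *Mcts2* was -0.00971 and -0.0170 in the last 2 settings. By cross *Nnat* was 0.0517 and *H13* -0.0802 in litters of like stage, and *Nnat* 0.0646 without litter 1 of Cast × B6. By mother *Gnas* was -0.0032 with DESeq2 and -0.35 with litter means, *Nespas* -0.0068 in flowcell 1, *Nnat* -0.24, *Blcap* 0.0806 and *Mcts2* 0.38 in flowcell 2, and *Mcts2* 0.16 with a lane block and 0.0831 at 46 to 52 somites. Against somite number rho of *Nespas* was 0.0261 with lane regressed out, 0.0488 with B6 mothers, 0.0306 with both and 0.205 in flowcell 2, *H13* -0.242 with B6 mothers and -0.0808 in flowcell 2, *Gnas* 0.0271 with F1 mothers and 0.0650 with B6 mothers and lane regressed out, *Nnat* -0.141 with F1 mothers, and *Mcts2* 0.334 with F1 mothers and 0.121 in flowcell 1. For BAF with B6 mothers it was -0.104 for *Blcap* and -0.326 for *H13* with lane regressed out, and -0.0044 for *Blcap* with 10 votes per embryo. By genotype with lane means removed, *Mcts2* was -0.0583 with B6, -0.0241 with F1 and -0.0329 with both mothers, *Nespas* -0.10 with F1 and -0.114 with both, and *Gnas* -0.0435 with F1 mothers. The genotype effect by mother of *Sfmbt2* was 0.0284 with lane and somite terms. With lane means removed rho was -0.223 for *Mcts2* and *H13* and -0.124 for *Nespas* and *Gnas*. In all, 328 recomputed values, counts over all genes included, were labelled as kept. For tests this meant the same direction and call, and for counts a value near the reported one but not always equal to it. Of the others, 38 turned sign, 17 lost a call, 16 gained a call and 29 counts moved farther.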

Other observations

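Of the 8 N2 libraries whose labels give no mother, 1 had over 100000 reads, and it held 7159 RPM of *Nnat*, 539 RPM of *Gnas*, 188 RPM of *H13*, 59.5 RPM of *Blcap* and 35.5 RPM of *Mcts2*. Of the 6 embryos with a mother but no genotypes 2 had over 100000 reads, and *Gnas* was at 411 and 6023 RPM and *Nnat* at 856 and 5564 RPM in them.

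*Sfmbt2*, with a mean of 1.75 RPM in N2 embryos, was below the minimum of 5 RPM and was tested only without it. It then had rho of -0.245 with somite number (q = 0.0279), and its mean was 1.24 RPM with B6 mothers and 2.45 RPM with F1 mothers (Bonferroni-adjusted p = 0.232). Its lane medians ran from 0 to 3.39 RPM, and lane accounted for 53.7% of its variance in ranks. With lane terms the slopes were -0.031 and -0.0059 log2 units per somite with B6 and F1 mothers. The part of lane in these values was not tested.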
